A study of Homo sapiens with 41 samples.

Results

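The genes described here encode the proteins of the cytosolic ribosome. They were chosen by symbol, as protein-coding genes named RPL or RPS followed by a digit together with RPSA, RPLP0, RPLP1 and RPLP2, leaving out the RPS6K kinases and 3 paralogues of the RPL22L1 type. The rule gave 82 of 19970 protein-coding genes on chromosomes 1 to 22 and X, of which 50 carry large-subunit names (RPL) and 32 carry small-subunit names (RPS). They lay on 21 chromosomes, with 12 on chromosome 19, and had a median length of 5.01 kb against 24.2 kb over all genes. The cells were MDA-MB-231, an established human breast epithelial line of the triple-negative type, which lacks the oestrogen and progesterone receptors and HER2 amplification. One arm compared untreated cells (control) with cells given the HDAC6 inhibitor Nexturastat A at 5 µM for 2 days (inhibitor), and the other compared cells with a control hairpin (shCtrl) and cells with a hairpin against HDAC6 (shHDAC6). Peak lists existed for 32 of 41 samples. HDAC6 ChIP had 2 lists each for control, inhibitor and shHDAC6, HDAC6 CUT&Tag had 2 control lists, acetylated histone H3 ChIP (labelled Pan-acetyl) had 2 control and 2 inhibitor lists, PolII ChIP had 2 lists in each of the 4 groups, and ATAC-seq had 3 lists in each. The first HDAC6 ChIP list of the control and inhibitor groups used a CST antibody and the second a Novus antibody, which also served for the shHDAC6 and CUT&Tag lists. Each library came from 100000 cells, and the labels do not say that replicates were separate cultures.

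A ribosome is built from a small subunit, which reads the messenger RNA, and a large subunit, which joins the amino acids. Each ribosome needs 1 copy of nearly every one of these proteins, so their genes are among the most steadily transcribed in growing cells. Most human ribosomal protein genes start transcription at a C within a run of pyrimidines, the 5′ terminal oligopyrimidine or TOP sequence, through which growth signals set how well the messenger is translated. Acetylation of histone H3 and a peak of RNA polymerase II mark active gene starts, and HDAC6 is a deacetylase best known from the cytoplasm.

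A gene counted as marked in a list when at least 1 bp of a peak lay within 1 kb of its start. The start came from a RefSeq promoter table for 65 of the 82 genes and, for the other 17, was the gene end with peaks in more of the 32 lists. For 19 of the 82, a start of another gene lay within 1 kb, such as VPS52 at 110 bp from RPS18 and LIAS at 134 bp from RPL9, and a peak there counts for both genes. The number of peaks in a list ran from 235 to 63833 for HDAC6 ChIP and from 1418 to 61186 for acetylated H3, and was 14458 and 22481 in the CUT&Tag lists, 19519 to 31198 in those of PolII and 25878 to 79666 in those of ATAC. The first replicate of each ChIP control and inhibitor group, the first ATAC control and inhibitor lists and both CUT&Tag lists were called on q, and the others on p with gaps in the peak numbering. Same-numbered control and treated lists were called on the same measure. With 2 lists against 2, no exact two-sided test can give a p below 0.3333, and with 3 against 3 none below 0.1, so the comparisons are given as values and counts beside the same count over all genes. Marker genes followed the labelled cell type only in part. VIM and SNAI2, genes of the mesenchymal-type state of these cells, had PolII and ATAC peaks in every list, but CD44 and AXL had no ATAC peak in any shCtrl or shHDAC6 list, and ZEB1 lacked some ATAC lists. Of the epithelial markers, KRT18 had PolII in all 8 lists, KRT8 had it in none, EPCAM and CDH1 had neither PolII nor ATAC in any shCtrl or shHDAC6 list, and CDH1 had no ATAC peak in any list. ESR1 (oestrogen receptor) and PTPRC (leukocyte CD45) had no peak in any list. Of the other receptor genes, ERBB2 (HER2) had PolII and ATAC peaks in every list, and PGR (progesterone receptor) had them in some lists only. Neuronal SYP had PolII in all 8 lists, and neuronal RBFOX3 and SNAP25 had ATAC in every shCtrl and shHDAC6 list. Leukocyte CD3E had ATAC in all 3 control lists. The HDAC6 gene had PolII and ATAC peaks at its start in every list, shHDAC6 included. A peak at a start does not measure the transcript, so the knockdown was not checked by it.

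The starts of 12 genes on which the results below turn are shown first, each as 60 bases before and 20 bases from the annotated start on the gene's own strand, taken from RefSeq (GRCh38.p14). Capitals mark the C nearest to the start, and within 10 bases of it, that is followed by at least 4 pyrimidines, with the pyrimidines after it. RPL29 and RPL34 had the highest acetylated H3 fold of these genes in the second control and the second inhibitor list. RPS4X had one of the largest increases in PolII peak width with the inhibitor, and RPL22 was the gene of highest rank that became marked by acetylated H3. RPS19 and RPS29 had HDAC6 peaks with both antibodies and in both assays. RPL32 and RPS18 had the largest fall and the largest rise in PolII rank after the knockdown. RPL38 and RPL17 had no ATAC peak in control cells, and RPL6 and RPL10L were the exceptions for PolII.
RPL29: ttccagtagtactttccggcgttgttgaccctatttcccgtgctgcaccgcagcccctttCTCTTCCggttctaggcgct
RPL34: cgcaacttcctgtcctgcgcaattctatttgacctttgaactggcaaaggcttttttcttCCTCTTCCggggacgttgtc
RPS4X: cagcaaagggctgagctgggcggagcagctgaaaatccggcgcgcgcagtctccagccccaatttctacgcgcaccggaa
RPL22: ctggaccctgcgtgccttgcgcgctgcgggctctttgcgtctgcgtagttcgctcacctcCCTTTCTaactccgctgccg
RPS19: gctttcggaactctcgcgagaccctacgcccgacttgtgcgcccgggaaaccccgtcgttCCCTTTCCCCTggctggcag
RPS29: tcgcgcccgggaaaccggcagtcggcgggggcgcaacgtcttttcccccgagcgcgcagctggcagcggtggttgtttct
RPL32: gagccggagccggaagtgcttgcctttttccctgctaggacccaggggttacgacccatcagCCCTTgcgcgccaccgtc
RPS18: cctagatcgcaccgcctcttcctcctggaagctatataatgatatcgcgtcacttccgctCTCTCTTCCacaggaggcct
RPL38: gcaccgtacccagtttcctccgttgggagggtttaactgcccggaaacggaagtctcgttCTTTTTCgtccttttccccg
RPL17: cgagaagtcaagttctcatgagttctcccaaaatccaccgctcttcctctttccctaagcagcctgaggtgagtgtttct
RPL6: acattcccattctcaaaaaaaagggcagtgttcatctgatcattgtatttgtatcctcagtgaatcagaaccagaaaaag
RPL10L: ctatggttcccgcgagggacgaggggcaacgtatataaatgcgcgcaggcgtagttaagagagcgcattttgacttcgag

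These windows lie at chr3:51995876-51995955 on the minus strand (RPL29), chr4:108620516-108620595 on the plus strand (RPL34), chrX:72277229-72277308 on the minus strand (RPS4X) and chr1:6199576-6199655 on the minus strand (RPL22). RPS19 is at chr19:41860195-41860274 on the plus strand, RPS29 at chr14:49598691-49598770 on the minus strand, RPL32 at chr3:12841546-12841625 on the minus strand and RPS18 at chr6:33272015-33272094 on the plus strand. RPL38 is at chr17:74203618-74203697 on the plus strand, RPL17 at chr18:49492446-49492525, RPL6 at chr12:112411423-112411502 and RPL10L at chr14:46651762-46651841, all 3 on the minus strand. In RPL29, RPL34, RPL22, RPS19, RPS18 and RPL38 that C was the base at the annotated start itself, and in RPL32 it lay 2 bases into the transcript. Pyrimidines also precede the start in several of these genes, such as RPL29 and RPL22, so the capitals show the part of a run read from the start and not its upstream end.

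Of the 65 genes with a promoter in the table, 56 (86.15%) had such a run within 10 bases of the start, against 33.84% of 15812 protein-coding promoters. The base at the start was itself such a C in 42 (64.62%), against 4.6% of all promoters, 7.25% of 69 mitochondrial ribosomal protein promoters and 41.18% of 17 translation factor promoters. The 9 genes without such a run within 10 bases were RPL10L, RPL13, RPL15, RPL17, RPL27, RPL6, RPS27L, RPS29 and RPS4X. Runs that begin further upstream were not counted, as in RPL17 and RPS29. The RPL6 start in the table lies inside the annotated gene and may not be its main start, so its letters describe that position only. On either strand of the 250 bases before and 50 bases after the start, CCGGAAG (the core of ETS factor motifs) occurred in 33.85% against 14.19% of all promoters, and in 42.03% of mitochondrial ribosomal protein promoters. AAGATGG (the YY1 core) occurred in 12.31% against 6.4%, and in 33.33% of the mitochondrial ribosomal set. GGGCGG (the GC box) was in 56.92% against 58.48% and TATAAA (the TATA box) in 9.23% against 9.64%, so the pyrimidine run set these promoters apart by the widest margin of the 5 patterns searched. These matches describe letters only.

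RNA polymerase II sat at nearly all of these genes in every condition. A peak lay at the start of 80 of 82 genes (97.56%) in all 8 PolII lists, against 52% of all genes. For 17 of the 82, and for 3293 of all genes, that position was the end with peaks in more lists, which favours a peak there. RPL3L counts among the 80 through such a position, 775 bp from that of MSRB1, and PolII covered at most 0.5% of its length. In both control lists the share was the same 80 genes, against 54.6% of all genes. The comparison lists gave 74 of 77 mitochondrial ribosomal protein genes, 24 of 24 translation factor genes and 30 of 30 ribosome biogenesis genes. None of the 82 was lost with the inhibitor, meaning marked in every control list and no treated list, and none was gained in the reverse sense, against 0.0451% and 0.295% of all genes. After the knockdown 0 were lost and 0 gained, against 0.596% and 0.781% of all genes. The first exception was RPL10L, an intronless copy of RPL10 best known from testis, which had no PolII peak anywhere in the gene and was marked in 1 of the 32 lists, an ATAC inhibitor list. The second was RPL6, a large-subunit protein gene that was marked in 3 of 32 lists. The RPL6 start in the table lay inside the annotated gene (chr12:112405181-112418835), and in the control, inhibitor and shCtrl lists the nearest PolII peak within the gene began 1267 to 1634 bp from it. The share of genes marked in each list is plotted for the ribosomal protein genes and for all genes.

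**Figure D1:**
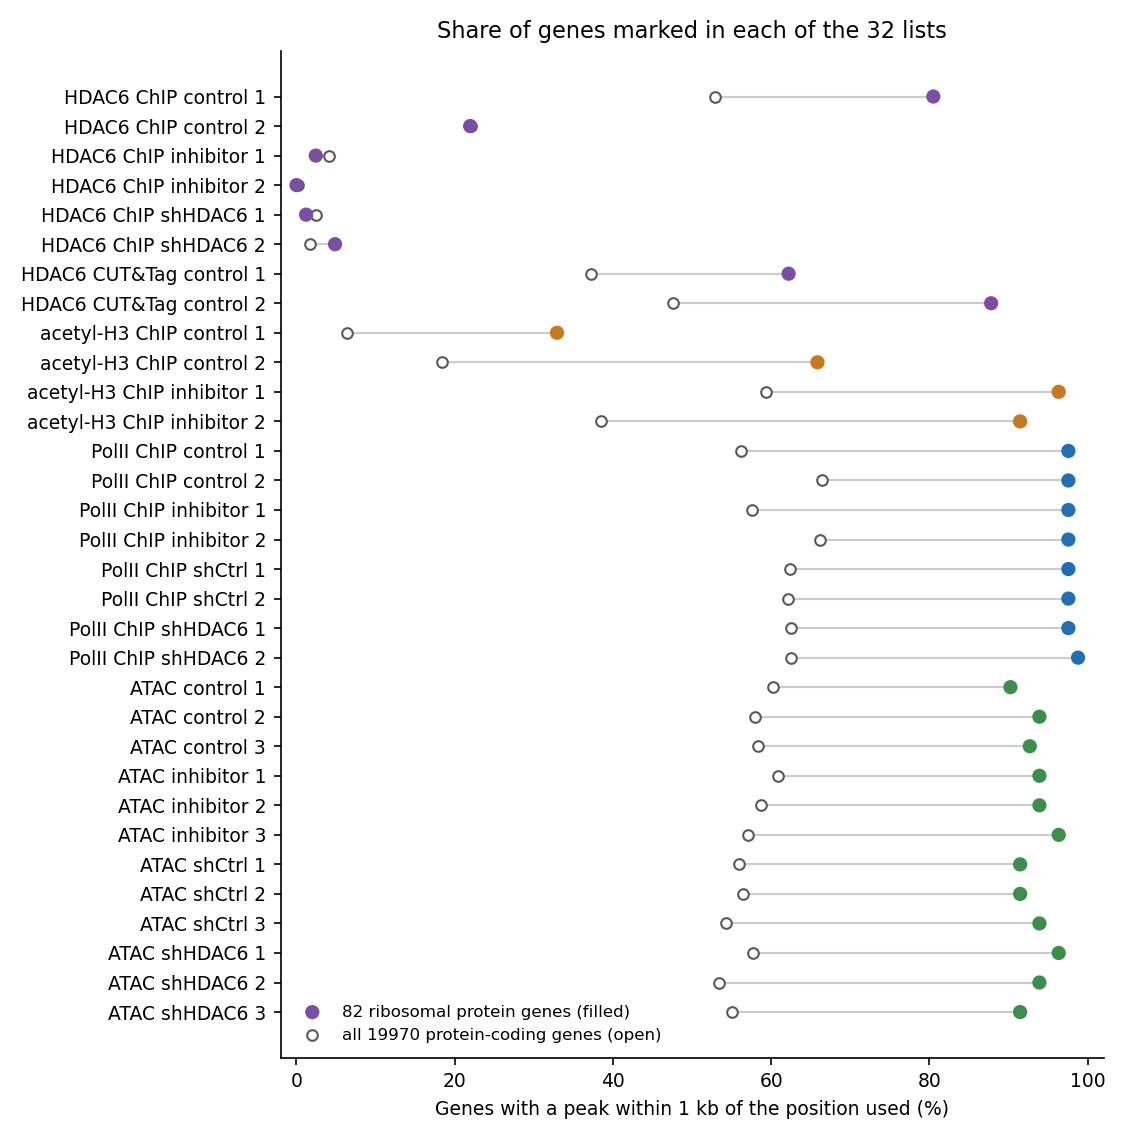
Percent of genes with a peak within 1 kb of the position used (x axis) in each of the 32 peak lists (y axis); filled points are the 82 ribosomal protein genes and open points all 19970 protein-coding genes. In PolII lists the filled points sit at 97.56% or above, in ATAC lists between 90.24% and 96.34%, and in the inhibitor and shHDAC6 lists of HDAC6 ChIP at 4.88% or below.

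With the inhibitor, the PolII peak at these starts was wider. Median width over the 80 genes with a peak in every list was 5.63 and 3.04 kb in the 2 control lists and 7.93 and 7.53 kb in the 2 inhibitor lists. Over the 10680 gene starts marked in those 4 lists it was 1.11 and 1.72 kb in control and 1.43 and 1.71 kb with the inhibitor. The peak was wider in both inhibitor lists than in both control lists for 56 of 80 genes, which is 70%, against 14.7% of all gene starts. It was narrower for 0 of 80, against 3.16%. The width counted is that of the peak with the highest fold within 1 kb of the start, and was added as a measure after the lists had been examined. Within the first pair of lists 74 of 80 genes were wider (median ratio 1.26), as were 8312 of 10680 over all gene starts (median ratio 1.26). Within the second pair 71 of 80 were wider, against 4696 of 10680 over all gene starts. The median ratio there was 2.21 against 0.984 over all gene starts. The first pair's ratio thus equalled that of all gene starts, and only in the second pair did the 2 medians separate. Over the whole genome, PolII peaks covered 26.1 and 35.5 Mb in control and 47.9 and 37.4 Mb with the inhibitor, and the part of list size in the widths was not tested.

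Since these genes had wide peaks already in control cells, starts of similar width were set beside them. Among starts with a peak of at least 3 kb in each control list, 27 of 38 ribosomal protein genes (71.05%) were wider in both inhibitor lists, against 143 of 403 of all genes (35.48%). Among genes of at most 10 kb the counts were 51 of 70 (72.86%) against 455 of 2226 (20.44%). Under that limit 5 of 8 translation factor genes (62.5%) and 5 of 10 ribosome biogenesis genes (50%) were wider. For mitochondrial ribosomal protein genes it was 11 of 41 (26.83%). Without a limit, mitochondrial ribosomal protein genes were wider in 15 of 74 and translation factor genes in 10 of 24, and ribosome biogenesis genes in 8 of 30, with 3 narrower. Without the limits on width and length, the share was thus highest for the cytosolic ribosomal protein genes of the 4 gene lists. With at least 3 kb in each control list, the other lists held few starts, of which 5 of 6 translation factor, 2 of 2 mitochondrial ribosomal and 2 of 2 biogenesis genes were wider.

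The genes with the largest widening belonged to both subunits. At RPS4X, the X-linked copy of a small-subunit protein, the peak spanned 1.09 and 2.26 kb in control and 11.2 and 9.42 kb with the inhibitor. At RPL34, the widths were 1.54 and 1.02 kb in control and 6.97 and 7.12 kb with the inhibitor. At RPL14, they were 2.05 and 1.44 kb and then 8.79 and 9.44 kb. In each of these genes both inhibitor values were at least 4 times either control value. These are widths of 1 peak, and further peaks lay in the genes. All PolII peaks together covered 84.7% and 29.7% of RPS4X in control, 32.8% and 5.89% of RPL34, and 52.8% and 9.95% of RPL14. How far the larger widths come from peaks that the caller had split in control was not tested. RPL36 went from 3.20 and 5.66 kb to 22.9 and 10.3 kb, spans much longer than the gene itself, which is 1581 bp. RPS24, a small-subunit gene of 22944 bp, had 3.96 and 2.03 kb in control and 11.2 and 10.6 kb with the inhibitor, and RPL32 had 3.60 and 3.41 kb and then 12.1 and 12.6 kb. RPS25 did not follow this pattern, with 6.63 and 1.94 kb in control and 5.70 and 1.37 kb with the inhibitor. RPS2 and RPS15 also overlapped between groups, with control widths of 5.13 and 9.70 kb for RPS2 and 4.22 and 8.996 kb for RPS15. A pyrimidine run at the start did not separate the wide genes. Wider in both inhibitor lists were 29 of 42 genes with the run at the start and 11 of 14 with it nearby. The same held for 6 of 7 ranked genes without it within 10 bases.

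After the knockdown the widths went in both directions. Medians were 3.91 and 3.28 kb in shCtrl and 3.97 and 3.9 kb in shHDAC6, and 21 of 80 genes were wider and 18 narrower in both shHDAC6 lists, against 34.2% and 28.3% of all gene starts. The median ratio was 0.994 in the first pair and 1.05 in the second. RPS4X, the gene with the wide inhibitor peak, had 2.79 and 3.66 kb in shCtrl and 3.54 and 3.09 kb in shHDAC6, values that overlap. RPS18, which had 7.79 and 3.92 kb in control and 7.72 and 7.80 kb with the inhibitor, was narrower after the knockdown, at 3.97 and 2.57 kb against 8.90 and 7.73 kb in shCtrl. Of RPLP0, RPLP1 and RPLP2, which form the stalk of the large subunit, RPLP0 and RPLP2 were narrower in both shHDAC6 lists and RPLP1 overlapped. RPLP2 had 6.53 and 2.37 kb in shCtrl and 1.99 and 2.2 kb in shHDAC6.

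**Figure D2:**
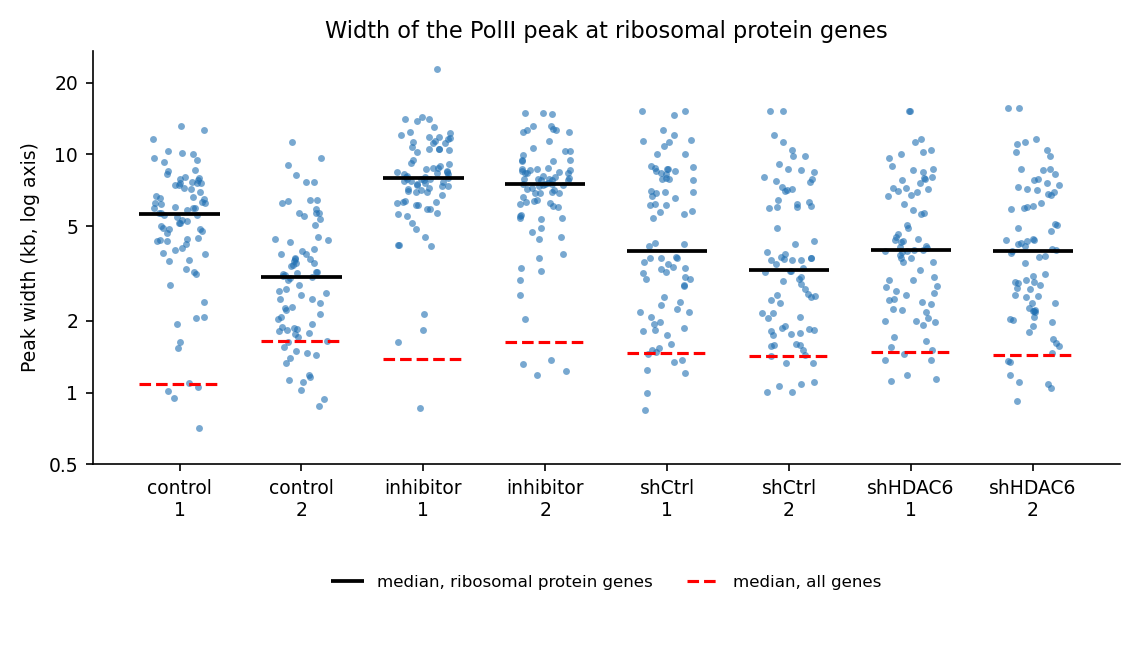
Width of the PolII peak in kb (log axis) at ribosomal protein genes in each of the 8 PolII lists; each point is 1 gene, the black bar is the median of these genes and the dashed red bar the median of all marked genes. The medians of the ribosomal protein genes are 5.63 and 3.04 kb in control, 7.93 and 7.53 kb with the inhibitor, 3.91 and 3.28 kb in shCtrl and 3.97 and 3.95 kb in shHDAC6, over 80 genes in each list and 81 in the last.

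In 7 of the 8 lists PolII peaks covered over 50% of the length of these short genes at the median, and in the second pair more of it was covered with the inhibitor. Coverage counts every peak in the gene, so a stretch that the caller split into several peaks counts whole. The median share of gene length under a PolII peak over all 82 genes was 100% and 45.3% in control, 100% and 100% with the inhibitor, 79.5% and 64.6% in shCtrl and 76.1% and 53.6% in shHDAC6. The number of genes covered from end to end was 48 and 15 in control and 66 and 54 with the inhibitor, and was 31, 23, 24 and 23 in the shCtrl and then the shHDAC6 lists. Over all genes the shares were 1.57% and 1.01% in control and 2.92% and 1.81% with the inhibitor. In the shCtrl and then the shHDAC6 lists they were 1.61%, 1.39%, 1.27% and 1.2%. Among other genes of at most 10 kb with PolII in every control and shCtrl list they were 10.9% and 7.39% in control and 19.47% and 11.75% with the inhibitor. Within the first control and inhibitor pair, 50 genes had the same coverage, 48 of them at full length in both lists, and 31 were higher and 1, RPS3, lower. Within the second pair 63 were higher, 16 the same and 3 (RPL3L, RPL38 and RPL39L) lower, with a median difference of 32.09 points. In the knockdown pairs 31 were higher and 30 lower, and 31 higher and 33 lower. These pair counts were made for the 82 genes only.

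Among genes of at most 10 kb with PolII in every control and shCtrl list, the 70 ribosomal protein genes had median coverage of 100% and 55.95% in control and 100% and 100% with the inhibitor. The 2137 other genes of that length had 16.72% and 22.69% in control and 29.85% and 28.7% with the inhibitor, and 41 mitochondrial ribosomal protein genes had 16.75%, 19.09%, 33.26% and 21.34%. Length below 10 kb was thus shared, and coverage differed several times between the sets in each list. There were 11 genes covered from end to end in all 8 lists, among them RPL41, RPS2, RPS15, RPL36, RPL13A, RPL3, RPL10A and RPL8. RPS4X was covered over 84.7% and 29.7% of its length in control, although its control peak at the start was short in the first list, and over 100% in both inhibitor lists. RPL34 was covered over 32.8% and 5.89% in control and 67.6% and 68.2% with the inhibitor. RPS24 was covered over 27.3% and 15.6% in control and 46.3% and 42.7% with the inhibitor, so the wider peaks reached into the gene without spanning it. Processed copies of ribosomal protein messengers lie elsewhere in the genome, and how reads matching several places were treated is not given in the sources used here.

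The rank of PolII fold over background gave no common direction with the inhibitor. Fold was ranked among the 10680 starts with a peak in all 4 lists, so that 50 is the middle and 100 the top. The median rank of the 80 genes was 65.95 and 57.93 in control, and 90.6 in the first and 25.72 in the second inhibitor list. Of these genes 41 were in the top 10% of starts in the first inhibitor list and 2, RPS25 and RPL39L, in the second, against 9 and 11 in control. Within the first pair 68 of 80 were higher and within the second 23 of 80. Only 3 genes were higher and 5 lower in both inhibitor lists than in both control lists, against 12.6% and 12% of all starts. Without the second inhibitor list 55 were higher, and without the first 53 were lower, so each count rests on the 2 lists together. In these lists fold belongs to the whole peak, and all 5 genes ranked lower were also wider, while the 3 ranked higher overlapped in width.

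RPS6 (mean control rank 94.9), RPS4X (92.1), RPS20 (91.9), RPS16 (89.7) and RPL39L (89.3) led the control ranks. RPS10 (16.7), RPL24 (16.8), RPL38 (19.95), RPL35A (22.6) and RPS29 (26.6) were the lowest. RPS4X had ranks of 99.3 and 84.8 in control and 60.5 and 6.08 with the inhibitor, and its fold was 10.3 and 13.99 and then 5.19 and 4.62. RPS9 went from 85.7 and 89.6 to 57.2 and 13.6, and RPL14 from 81.6 and 90.3 to 61.6 and 10.1. These falls came with wider peaks in all 3 genes, RPS9 having 4.47 and 2.38 kb in control and 10.2 and 9.95 kb with the inhibitor. RPS20 was also ranked lower. RPS2 had ranks of 88.5 and 52.0 in control and 99.6 and 88.8 with the inhibitor, RPS25 had 66.1 and 84.5 and then 98.3 and 90.8, and RPL36AL had 28.7 and 55.9 and then 60.9 and 60.1. The RPS2 groups were separated by less than 1 rank.

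After the knockdown the ranks of these genes were lower more often than higher. Among 12097 starts with a peak in all 4 lists, the medians were 71.47 and 80.41 in shCtrl and 65.9 and 71.91 in shHDAC6. There were 38 of 80 genes lower in both shHDAC6 lists and 12 higher, against 39.4% lower and 40% higher over all starts. In percent, 47.5% of these genes were lower and 15% higher. The count of higher genes was 26 without the second shCtrl list and 19 without the first shHDAC6 list. The median difference was −4.56 in the first pair, with 30 of 80 genes higher, and −8.91 in the second, with 24 of 80 higher. Translation factor genes gave 16 lower and 3 higher of 24, and mitochondrial ribosomal protein genes 32 lower and 23 higher of 75. Width did not divide the genes here, since of the 38 lower genes 11 were wider, 7 narrower and 20 overlapped.

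RPL21 (mean shCtrl rank 99.9), RPS26 (99.5), RPL27 (98.3), RPS3A (97.5) and RPL11 (97.4) led in shCtrl cells, and RPL35A (16.8), RPL34 (31.3), RPL24 (40.7) and RPL23 (42.4) were among the lowest. RPL32, whose marked C lies 2 bases into the transcript, had ranks of 92.0 and 92.3 in shCtrl and 42.7 and 35.0 in shHDAC6. Its fold was 8.72 and 9.86 in shCtrl and 5.38 and 5.13 in shHDAC6. RPL37 went from 38.2 and 87.7 to 9.11 and 18.8, and RPL38 from 66.5 and 68.2 to 24.8 and 27.3. RPS18 moved the other way, with fold of 5.79 and 6.73 in shCtrl and 11.8 and 18.0 in shHDAC6, and ranks of 65.8 and 70.7 and then 97.2 and 99.7. The window of RPS18 also holds the start of VPS52. RPL39L, a paralogue of RPL39 best known from testis, went from 63.7 and 63.6 to 92.0 and 89.7, and RPL9 from 78.5 and 80.3 to 99.7 and 99.8. The RPL9 window is shared with LIAS.

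**Figure D3:**
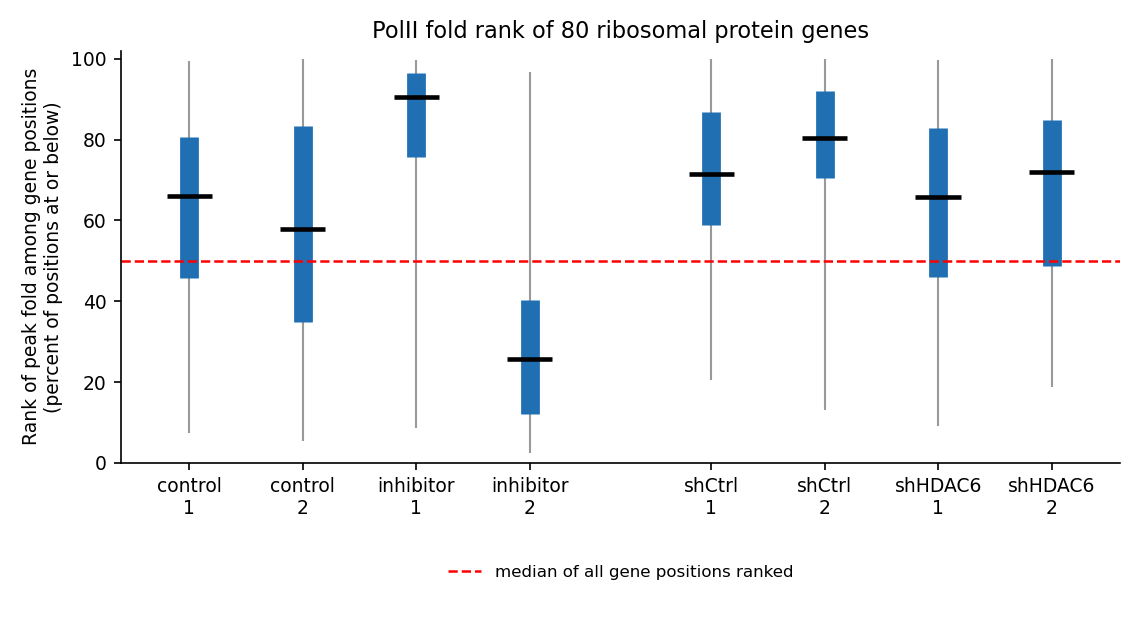
Percentile rank of PolII fold (y axis, percent of ranked starts at or below) of 80 ribosomal protein genes in the 4 lists of each comparison; grey lines run from the lowest to the highest gene, blue bars hold the middle 50% of genes, black bars are medians, and the dashed line at 50 is the middle of all starts. The medians are 65.95, 57.93, 90.6 and 25.72 in the control and inhibitor lists and 71.47, 80.41, 65.9 and 71.91 in the shCtrl and shHDAC6 lists.

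Acetylated H3 was found at more of these genes with the inhibitor, and in 2 of the 4 lists their peaks were among the strongest in the genome. The genes marked numbered 27 and 54 of 82 in control and 79 and 75 with the inhibitor, while 6.37% and 18.4% of all genes were marked in control and 59.3% and 38.5% with the inhibitor. In both control lists 16 of 82 genes were marked, against 2.45% of all genes. The same 16 were marked in all 4 lists (19.51%, against 2.21%), and in both inhibitor lists 74 (90.24%), against 34.3%. None was lost with the inhibitor, against 0% of all genes. There were 12 gained, against 19.8% of all genes. Since only 17 of the 82 lacked a peak in both control lists, the 12 are 70.59% of those that could be gained, against 25.44% over all genes. Among starts with ATAC and PolII peaks in every control list the shares were 10 of 13 (76.92%) and 55.17%, so the gap to other genes was smaller among active starts. The count of 12 rests on both control lists, being 21 without the first and 49 without the second, and it was 0 at a −log10 q of at least 5. All 9 translation factor genes and 35 of 51 mitochondrial ribosomal protein genes that could be gained at such starts were gained.

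The gained genes included RPL22, RPS28, RPS13, RPL14, RPS12, RPS27A, RPL10, RPL27A, RPS25 and RPS26. RPL22, a large-subunit protein whose gene is mutated in some tumours, had fold of 5.01 and 3.39 in the inhibitor lists, at percentiles of 96.5 and 99.5 within those lists. RPS28, a small-subunit protein, had fold of 4.91 and 2.71, RPS13 4.25 and 2.91, RPL14 5.25 and 2.46, and RPS12 4.06 and 2.91. These 5 genes had no acetylated H3 peak in either control list. The RPS28 window also holds the start of NDUFA7, at 121 bp.

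The strength of the peaks separated the replicates more than the groups. The median percentile of fold within the list was 33.6 and 99.7 in the control lists and 84.6 and 99.4 with the inhibitor, against 52.3, 21.3, 77.4 and 47.0 for all marked genes. In the second control list 42 of 54 marked genes (77.78%) lay in the top 1% of all peaks, against 6.68% of all marked genes, and in the second inhibitor list 41 of 75 (54.67%), against 4.17%. In each first list only 1 gene did, RPS19 in control and RPL5 with the inhibitor. The sets of 42 and 41 shared 38 genes, which is 90.5% of the first set and 92.7% of the second. Both second lists were called on p and both first lists on q, and the part of this in the difference was not tested. At a −log10 q of at least 5, peaks at these genes made up 39 of 202 (19.31%) in the second control list and 27 of 75 (36%) in the second inhibitor list. In the first inhibitor list they were 40 of 3854 (1.04%), and in the first control list 1 of 15. Strong peaks also occurred without a pyrimidine run within 10 bases of the start. The top 1% of the second control list held 22 of 42 genes with the run at the start. It also held 4 of 9 genes without a run in that range.

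RPL29, a large-subunit protein also known for binding heparin at the cell surface, held the strongest peak of the second control list, with fold of 11.2, a −log10 q of 41.1 and a width of 1.06 kb. It had no peak in the first control list, and fold of 5.33 and 4.91 in the inhibitor lists. RPS15 (fold 8.88), RPL35 (8.77), RPL17 (8.39) and RPS14 (7.49) came next of these genes in the second control list. RPL34 led them in the second inhibitor list, with fold of 8.08 and a −log10 q of 12.8, before RPL9 (6.78), RPS10 (5.51), RPL27 (5.25) and RPL29. RPS19, a small-subunit protein mutated in Diamond-Blackfan anaemia, led the first control list with fold of 4.88, and RPL5, a large-subunit protein that binds the 5S RNA, led the first inhibitor list with fold of 6.70. RPS19 and RPL29 show how far the control lists differ, since RPS19 stood at percentile 99.8 in the first and 22.1 in the second.

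The acetylated stretch was also longer with the inhibitor, at these genes and over all marked genes. Median width at marked ribosomal protein genes was 357 and 1989 bp in control and 2128 and 3261 bp with the inhibitor. Over all marked genes it was 401 and 989.5 bp in control and 1289 and 1772 bp with the inhibitor. The genes marked differ between lists, with 27, 54, 79 and 75 ribosomal protein genes behind these medians. The median share of gene length covered, over the 70 genes of at most 10 kb with PolII, was 0% and 14.26% in control and 33.36% and 49.74% with the inhibitor. In 2137 other genes of that length it was 0%, 0%, 19.15% and 11.73%. In both inhibitor lists these genes were thus covered over more of their length than the other short genes.

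**Figure D4:**
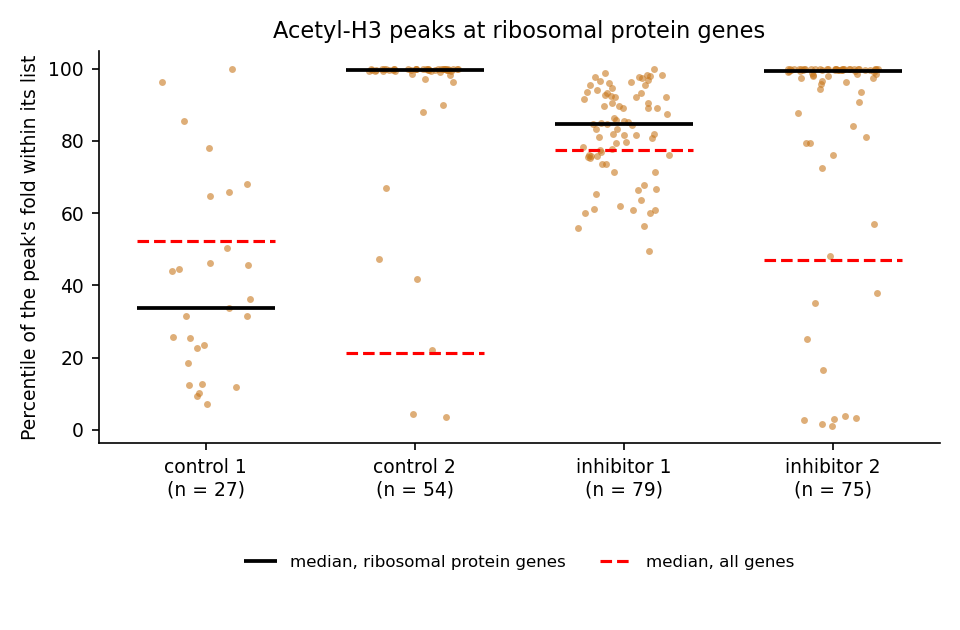
Percentile of the acetylated H3 peak's fold within its own list (y axis) at marked ribosomal protein genes in the 4 lists; each point is 1 gene, the black bar the median of these genes and the dashed red bar the median of all marked genes. The medians of the ribosomal protein genes are 33.6 and 99.7 in control and 84.6 and 99.4 with the inhibitor, and both second lists crowd at the top.

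HDAC6 peaks at these genes were frequent but weak. In control cells 66 of 82 genes were marked by the CST antibody (80.5%, against 52.9% of all genes), 18 by the Novus antibody in ChIP (21.95% against 22.05%), and 51 and 72 in the CUT&Tag lists (62.2% against 37.2% and 87.8% against 47.7%). The CST list and both CUT&Tag lists marked 41 genes (50%), against 31.7% of all genes. Among starts with ATAC and PolII in every control list the shares were 56.3% of 71 ribosomal protein genes and 63.5% of all genes, so the overlap of these 3 lists was not more frequent here than at other active starts. List by list at such starts, the shares were 84.51% against 86.99% for the CST list, 69.01% against 71.97% for the first CUT&Tag list and 92.96% against 85.84% for the second. Their peaks ranked below the middle of marked genes in 3 lists, with median percentiles of 46.6, 47.7 and 53.1 in the CST and CUT&Tag lists against 61.8, 63.8 and 70.0. In the Novus ChIP list it was 32.9 against 22.8. The median −log10 q of their peaks was 1.79 in the CST list, 0.108 in the Novus ChIP list, and 3.01 and 3.84 in the CUT&Tag lists.

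Peaks from both antibodies and both assays met at 9 genes (10.98%), against 8.1% of all genes: RPS19, RPS29, RPL7, RPL26, RPL36AL, RPS15A, RPS24, RPLP1 and RPLP2. Among starts with ATAC and PolII in every control list the shares were 12.68% of 71 ribosomal protein genes and 15.86% of all genes. RPS19 had fold of 3.07 (CST) and 2.30 (Novus) in ChIP and 5.27 and 5.15 in CUT&Tag, with −log10 q of 15.1 and 16.8 in the latter, the highest of these genes in both lists. RPS29, a small-subunit protein with a zinc finger, had 3.32, 2.48, 3.46 and 3.86. RPL7 had 3.32, 1.97, 4.2 and 4.16, and RPL26 had 2.78, 2.24, 4.03 and 4.49. In each of these 4 genes both CUT&Tag values were above both ChIP values, although fold from the 2 assays is not on a common scale. The count of 9 was 41 without the Novus ChIP list and 15 without the first CUT&Tag list, and 0 at a −log10 q of at least 5. RPL39L had the top percentile of these genes in the second CUT&Tag list, at 99.7. RPL6, RPL10L, RPL19 and RPL29, 4 of the 82 genes, had no HDAC6 peak in control cells, while 34% of all genes had none. For RPL6 this describes a position inside the gene. Among starts with ATAC and PolII in every control list, 1 of 71 ribosomal protein genes and 242 of 9304 of all genes had none.

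With the inhibitor nearly no HDAC6 peak was left at these genes. The inhibitor lists marked 2 (RPLP0 and RPL15) and 0 of 82, and all 17 genes with a peak in both control ChIP lists were lost, against 13.8% of all genes. Without the Novus control list 64 were lost, of the 66 that the CST antibody marked in control (80.5%, against 52.9% of all genes). Over all genes with a peak in both control ChIP lists 91.5% were lost. None was gained, against 0% of all genes. The inhibitor lists held 3256 and 235 peaks in all, and the control lists 28590 and 63833, so the loss at these genes was that of the lists as a whole. The shHDAC6 lists marked 1 (RPS25) and 4 (RPL4, RPL9, RPS14 and RPS18) of 82, which is 1.22% and 4.88% against 2.53% and 1.72% of all genes, with median −log10 q of 0.0379 and 0.0084, against 18 in the control list of the same antibody. That comparison has 1 control list, and it comes from the control cells of the inhibitor arm. No HDAC6 ChIP list of shCtrl cells existed, so effects of carrying a hairpin and of the knockdown cannot be told apart there.

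Accessible chromatin was present at most of these genes and hardly differed between groups. ATAC lists marked 74 to 79 of the 82, and 71 (86.59%) had a peak in each of the 3 control lists, as did 50.4% of all genes. In all 12 lists 64 (78.05%) were marked, against 41.2%. With the inhibitor 0 were lost and 0 gained, against 0.0501% and 0.0551% of all genes, and after the knockdown 0 and 0, against 0.19% and 0.2%. The genes without an ATAC peak in every control list were RPL17, RPL38 and RPL10L (0 of 3), RPL19 and RPL6 (1 of 3), and RPL13, RPS15, RPL36, RPS28, RPS16 and RPL14 (2 of 3). RPL17 and RPL38 were marked in 4 of 12 ATAC lists each, yet PolII was at their start in all 8 lists and acetylated H3 in both inhibitor lists and the second control list. Where these genes had an annotated start and a peak, the highest point of the ATAC peak lay upstream of it in 77.97% to 90% of them over the 12 lists, against 68.62% to 78.99% of all such genes.

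The median rank of ATAC fold at these genes was below the middle in every list. Among 9424 starts with a peak in the 6 control and inhibitor lists, the median rank of 69 of these genes was 41.5, 39.1 and 43.4 in control and 37.3, 44.6 and 46.1 with the inhibitor. Among 9145 starts with a peak in the 6 hairpin lists, that of 70 genes was 37.7, 44.4 and 47.8 in shCtrl and 43.9, 46.9 and 44.9 in shHDAC6. RPSA (mean control rank 86.4), which doubles as a laminin receptor, RPL37 (85.8), RPS19 (84.9) and RPL39L (83.3) were highest. RPL8 (1.63), RPL12 (4.26), RPL7A (5.92), RPS2 (8.69) and RPS21 (10.2) were lowest. In shCtrl cells RPL36AL (94.9), RPSA (86.4), RPL22 (85.3), RPLP0 (78.0) and RPL39L (77.8) were highest, and RPL8 (0.303), RPS2 (0.348), RPL13 (1.91) and RPS15 (2.03) lowest. RPSA and RPL39L were thus in the top 5 and RPL8 and RPS2 in the bottom 5 of both control sets. RPS2 and RPL8 combined a low ATAC rank with PolII coverage from end to end in all 8 lists. Of the other low genes named, RPS15 was so covered in all 8 lists. RPL12, RPL7A, RPS21 and RPL13 were so covered in 6, 4, 4 and 4 of them.

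With the inhibitor 0 genes had a higher and 2 a lower ATAC rank in every list, against 3.36% and 3.8% of all starts. RPL13A had 57.1, 64.9 and 62.2 in control and 43.2, 50.3 and 46.1 with the inhibitor. RPL3, a large-subunit protein that reaches towards the peptidyl transferase centre, had 9.09, 6.50 and 20.2 in control and 1.61, 0.610 and 2.10 with the inhibitor. Both shares were below those of all starts. After the knockdown 3 of 70 genes were higher and 1 lower, against 6.3% and 6.22% of 9145 starts. RPS7 had 63.6, 34.8 and 30.5 in shCtrl and 70.3, 80.3 and 66.1 in shHDAC6. RPS29 had 6.48, 14.7 and 9.23 and then 15.7, 49.3 and 21.9, and RPL13 had 0.186, 2.41 and 3.14 and then 12.9, 13.2 and 20.2. RPLP0, the base of the ribosomal stalk, was the lower one, at 68.6, 76.8 and 88.6 in shCtrl and 54.3, 66.0 and 61.4 in shHDAC6.

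Paralogues of these genes did not share one pattern. RPL39 had PolII peaks of 7.58 and 1.82 kb in control and 8.52 and 8.68 kb with the inhibitor, while RPL39L had 0.713 and 1.47 kb and then 1.62 and 1.19 kb. RPS27 had 3.57 and 0.882 kb in control and 4.50 and 4.73 kb with the inhibitor, and RPS27L, a copy known as a target of p53, had 0.953 and 1.19 kb and then 1.82 and 1.32 kb. RPL36A had 4.75 and 1.49 kb and then 7.40 and 6.27 kb, and RPL36AL 4.39 and 2.46 kb and then 6.22 and 2.57 kb. In each pair the copy ending in L had the narrower peak in both inhibitor lists. RPL3 was covered from end to end in all 8 PolII lists, with widths of 9.47 to 12.7 kb, whereas RPL3L, known from heart and skeletal muscle, was covered over at most 0.5% of its length. The position used for RPL3L is 775 bp from that of MSRB1, and its peaks cannot be told apart from those of that gene.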

How the data were processed

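The 32 peak lists were made by the authors, 1 per sample, in build hg38 per the submitters' processing notes, which list MACS2 2.2.7.1, ChIPseeker 1.28.2, Bowtie2 2.4.4, Trim Galore 0.6.7, deepTools 3.5.1 and SAMtools 1.13 but not their roles. Lists have no header. ChIP and CUT&Tag lists hold 9 columns and ATAC lists 10. As deposited by the authors, each peak has a score (10 times the −log10 of p or q), a fold over background as a linear ratio, the −log10 p and −log10 q, and in ATAC lists the offset of the peak's highest point. Read depth is not given in the lists, so no interval could be computed. Peak names in 2 lists (the second HDAC6 ChIP inhibitor list and the second CUT&Tag list) carry the prefix of another group, and both were kept by their labels.

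Repeated ATAC intervals were merged with Python 3.11.15 and pandas 2.3.3. Gene ends came from a RefSeq gene table and starts and sequences from a RefSeq promoter table, both GRCh38.p14. A gene was marked by a peak overlapping the window of 1 kb each side of its position by at least 1 bp, and its peak was the one of highest fold. Percentiles of fold are within a list, and ranks are among starts marked in all lists of a comparison, since ranks from lists of unequal length show no change. Lost means a peak in every control and no treated list, gained the reverse. The counting was tested on simulated lists. The genes, comparison lists and measures were chosen with earlier results of these data known. Named genes were those with HDAC6 in all control lists, those lost or gained, the 5 highest and lowest by control rank, those lacking ATAC, the 5 leading gained acetylated H3 genes and the 3 largest rank rises and falls, and width examples and single genes behind small counts were chosen after their values were seen. No test was run, and the alternatives tried are given in the closing section. Some genes that this rule names are not reported here.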

Additional observations from a re-analysis of the deposited data

How the results depend on the processing

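No paired analysis was possible because the results come from no fitted test, so a replicate block could not be added. Differences within same-numbered lists are given as values in the report. Over 25 counts and 292 alternatives, 228 stayed within 1.5 times the count reported and 64 did not. The widening of PolII peaks with the inhibitor (56 of 80 genes) stayed within that range under every alternative run: 46 with annotated starts only, 54 to 56 under the other windows, overlap and gene end, and 61 to 68 with 1 list left out.

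With only peaks of a −log10 q of at least 5, the 9 genes with HDAC6 in all control lists, the 17 that lost HDAC6 and the 12 that gained acetylated H3 each became 0, and 1 gene lost ATAC after the knockdown. With the strongest peaks of each list only, to the length of the shortest, HDAC6 in all lists became 1, lost HDAC6 0, and gained acetylated H3 1, and 1 gene lost acetylated H3, 1 lost ATAC with the inhibitor, and 1 lost and 2 gained ATAC after the knockdown; fewer peaks were used there by construction. With annotated starts only, 3 genes in place of 5 ranked lower for PolII with the inhibitor. With a 3 kb window 1 gene ranked higher and 1 lower for ATAC with the inhibitor. With the gene end of more lists, 1 gene gained ATAC and 2 ranked lower for ATAC after the knockdown, and 1 ranked higher for ATAC with the inhibitor.

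Leaving out 1 list in turn gave 9 to 41 genes for HDAC6 in all control lists (41 without the Novus ChIP list), 17 to 64 for lost HDAC6 (64 without the same list) and 12 to 49 for gained acetylated H3 (21 and 49 without the first and second control list). PolII ranks with the inhibitor ran from 5 to 55 higher and from 8 to 53 lower, and each of the 4 lists moved the count of 3 or 5 by over 1.5 times. PolII ranks after the knockdown ran from 15 to 26 higher, and from 42 to 53 lower. PolII peaks narrower with the inhibitor numbered 1 to 4, and after the knockdown 29 to 39 were wider (39 without the first shCtrl list) and 22 to 37 narrower (37 without the second shCtrl list, 29 without the first shHDAC6 list). For ATAC with the inhibitor 3 to 6 ranked higher and 2 to 6 lower, and after the knockdown 5 to 7 higher and 3 to 8 lower. Gained PolII after the knockdown, gained ATAC with the inhibitor, and lost and gained ATAC after the knockdown each ran from 0 to 1. The cause was not tested for any of these. The number of lists, 2 or 3 a group, limits every count.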

Other observations

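Genes of the ribosome that the naming rule leaves out had values of their own. FAU, which encodes the small-subunit protein eS30 fused to a ubiquitin-like protein, and RACK1, a scaffold protein of the small subunit, had PolII and ATAC peaks in all 8 and all 12 lists and acetylated H3 in both inhibitor lists. The paralogues RPL22L1, RPL26L1 and RPL7L1 had PolII in all 8 lists, ATAC in all 12 and HDAC6 in both CUT&Tag lists, and RPL22L1 and RPL7L1 had acetylated H3 in both inhibitor lists.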
